A study of Bos taurus with 15 samples.

Results

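The transcripts followed here encode extracellular matrix proteins and integrins, and the tissue was caruncular endometrium from Japanese Black cattle, a beef breed. A probe was taken when its description or systematic name held collagen type, laminin, fibronectin, integrin, fibulin, thrombospondin, tenascin, decorin, biglycan, lumican, versican or secreted phosphoprotein, with the ADAM and ADAMTS proteases (8 probes) left out. Of 80 such probes, 69 passed the filter on dim probes (a signal well above background on 3 or more of the 15 arrays) and are described here, out of 13164 probes tested in all. They stood for 65 genes, of which COL22A1, FN1, VCAN and RPSA had 2 probes each. The other 11 probes were too dim, among them those of the leukocyte integrin subunits ITGAM, ITGAL and ITGA4. Some familiar genes, namely COL3A1, COL4A2, COL6A1, LAMA5, LAMC1 and FBLN1, had no probe among the 69.

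Each array held labeled RNA of 1 cow. The groups were 4 non-pregnant cows on day 15 (NP15), 3 pregnant cows on day 15 (P15), 4 non-pregnant cows on day 18 (NP18) and 4 pregnant cows on day 18 (P18), and the labels place the non-pregnant cows in the estrous cycle. By the methods, days were counted from artificial insemination, pregnancy was judged by eye from the presence of a trophoblast in the opened uterine horn, and each stage had 4 animals, of which 3 P15 arrays were analyzed here. No treatment or genetic change is stated for any cow, and their ages are not given in the sources used here. A piece of caruncle holds epithelium, stroma, vessels and immune cells together, so fewer cells of a type and less RNA per cell cannot be told apart in these values.

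The extracellular matrix is the protein network around and beneath cells. Fibrillar collagens give it strength, type IV collagens and laminins form the basement membrane under epithelium and around vessels and muscle cells, and proteoglycans such as versican and decorin fill the space between and bind collagen. Integrins are cell surface receptors of an alpha and a beta subunit that tie cells to these proteins. Caruncles are the raised areas of the ruminant uterus where the placenta forms, and the conceptus attaches there to the luminal epithelium, with integrins and ligands such as osteopontin (SPP1) known to take part.

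The sequence of each 60-base probe decides which transcript it reads. The probes of 4 collagens are shown first, because they lie in the stretch that makes the triple helix, where glycine recurs at a fixed spacing along the chain. The first bases of its codon, GG, therefore return every 9 bases, and these pairs are in capitals. Of all 15208 probes other than controls, 6 (0.0395%) held GG at this spacing along their whole length.
COL2A1: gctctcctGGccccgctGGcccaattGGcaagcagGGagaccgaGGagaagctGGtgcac
COL11A1: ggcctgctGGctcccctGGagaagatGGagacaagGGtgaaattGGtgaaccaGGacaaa
COL6A2: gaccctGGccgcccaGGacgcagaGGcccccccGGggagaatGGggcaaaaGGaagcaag
COL4A1: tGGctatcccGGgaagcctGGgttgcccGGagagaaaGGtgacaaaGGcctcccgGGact

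The next 4 probes belong to genes that the results below turn on and hold no such repeat, so they are in lower case throughout.
COL1A1: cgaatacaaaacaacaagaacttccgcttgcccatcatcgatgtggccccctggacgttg
LAMA4: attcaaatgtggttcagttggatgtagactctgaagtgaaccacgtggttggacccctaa
TNXB: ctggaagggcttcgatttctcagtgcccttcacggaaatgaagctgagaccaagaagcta
ITGA5: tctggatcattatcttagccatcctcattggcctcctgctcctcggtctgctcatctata

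A level below is the processed signal of a probe divided by the median signal of its array, so 1 is the middle of the array. Levels of a group are given in the order of its cows, which are numbered as in the labels. The median signal was from 315 to 838 over the 15 arrays, and an array had 65.6 to 88.3% of its probes well above background. On all 15 arrays, 50 of the 69 gave a signal well above background, and 0 were saturated. Levels of different probes are not compared, because probes differ in how well they bind. Each group except NP15 was scanned on 1 day, and no scan day held more than 1 group, so scan day and group cannot be told apart. NP18 cow 4 had the highest level of its group for 30 of the 69 probes (43.5%, against 38.2% of all probes). Trophoblast transcripts were present in the P18 arrays, at high levels in cows 2 to 4 and at a low level in cow 1, as detailed with the cell type markers below.

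On day 18, several matrix transcripts were lower in the pregnant than in the non-pregnant endometrium, and the falls with the lowest adjusted p were those of versican (VCAN), type I collagen (COL1A1), tenascin X (TNXB) and type XII collagen (COL12A1). Of the 69 probes, limma called 10 (14.5%), which required an adjusted p below 0.05 and more than a 2-fold change, against 5.75% of all probes tested. Of these, 8 were lower in P18 (11.6%, against 2.1% of all probes) and 2 were higher (2.9%, against 3.65%). The median log2 difference, P18 minus NP18, was -0.27 over the 69 probes and 0.07 over all probes. A difference above 0 was found for 27 of the 69 probes (39.1%), against 55.7% of all probes. Every P18 array lay below every NP18 array for 11 probes (15.9%, against 5.8% of all probes) and above for 7 (10.1%, against 10.5%). On day 15, by contrast, limma called 1 of the 69 probes (1.45%, against 0.798% of all probes), a lower one (0.448% of all probes were called lower and 0.349% higher). The falls on day 18 lay among collagens, a laminin, glycoproteins and a proteoglycan, and the rises were those of the integrin subunit ITGB2 and of FLRT2.

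**Figure D1:**
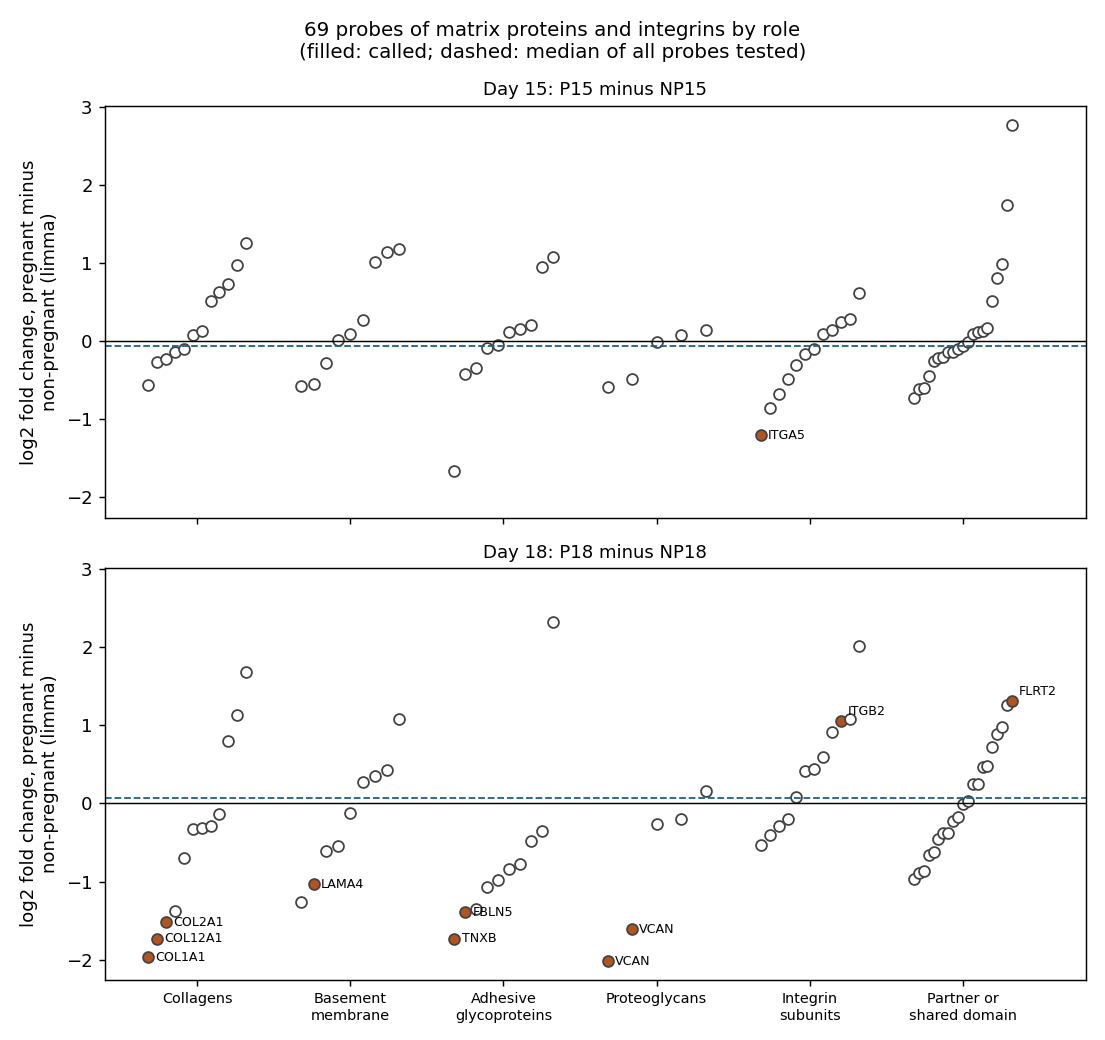
Log2 fold change, pregnant minus non-pregnant (vertical axis), of each of the 69 probes on day 15 (top) and day 18 (bottom), by role (horizontal axis, ordered by value within a role), with filled points called by limma and a dashed line at the median of all probes tested. On day 18 the 8 filled points below 0 are 3 collagens, LAMA4, TNXB, FBLN5 and both VCAN probes, and the 2 above 0 are ITGB2 and FLRT2.

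Among the 12 collagen probes outside type IV, 3 were called lower and 0 higher on day 18. A difference above 0 was found for 3 of 12, against 55.7% of all probes (median of -0.33 over the 12). COL1A1 encodes the main chain of type I collagen, the bulk fibril of most connective tissue. Its level was 1.68, 1.01, 1.11 and 3.22 in the NP18 cows and 0.427, 0.515, 0.366 and 0.320 in the P18 cows. All 4 P18 cows lay below all 4 NP18 cows, with NP18 cow 4 highest. The mean was 1.75 ± 1.02 (SD, n = 4) in NP18 and 0.407 ± 0.0845 (SD, n = 4) in P18, and the log2 difference was -1.97 ± 0.38 (SE, adjusted p = 0.00759). In NP15 it was 1.81, 1.70, 0.935 and 0.651, and in P15 it was 1.46, 1.01 and 1.42, so that P18 stood below every other group. The partner chain COL1A2 had levels of 20.8, 8.21, 6.90 and 43.4 in NP18 and 4.44, 7.66, 8.73 and 3.77 in P18. These ranges overlapped, and its log2 difference of -1.38 ± 0.48 (SE) was not called (adjusted p = 0.102).

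COL12A1, a collagen that sits on the surface of type I fibrils, had levels of 7.06, 4.82, 9.84 and 18.4 in NP18 and 2.17, 2.71, 3.69 and 2.35 in P18. Again no P18 cow reached the lowest NP18 cow, and the log2 difference was -1.73 ± 0.36 (SE, adjusted p = 0.0114). COL2A1, best known as the fibril of cartilage, had levels of 0.328, 0.214, 0.211 and 0.509 in NP18 and 0.109, 0.182, 0.0503 and 0.111 in P18, with the P18 signal well above background in 2 of 4 arrays. The groups did not overlap, and its log2 difference was -1.52 ± 0.38 (SE, adjusted p = 0.0292). COL11A1, whose product joins type II collagen in fibrils and whose probe has the same repeat, did not differ in the same comparison by the test (log2 difference -0.29 ± 0.32, adjusted p = 0.612), and neither did COL6A2 (-0.32 ± 0.48, adjusted p = 0.735). Both probes of COL22A1 were named from a description alone and moved in opposite directions on day 18 (1.68 ± 0.85 and -0.33 ± 0.57, neither called), so no direction is given for that gene. The other probes of this group, COL8A1, COL10A1, COL11A2 and COL18A1, had log2 differences from -0.70 to 1.14 and were not called, and the first 2 of these were not well above background in any P18 array.

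In the basement membrane group of 9 probes, 1 was called lower and 0 higher on day 18. Of the 9 differences, 4 were above 0, against 55.7% of all probes (median of -0.12 over the 9). LAMA4 encodes the laminin alpha chain typical of vessel walls and muscle. Its levels were 4.49, 1.72, 2.72 and 1.99 in NP18 and 1.30, 1.16, 1.46 and 1.08 in P18, each P18 cow being below each NP18 cow. The log2 difference was -1.03 ± 0.27 (SE, adjusted p = 0.0362), just over a 2-fold fall. COL4A1, the main type IV chain, was dim, with levels of 0.0809, 0.0844, 0.180 and 0.231 in NP18 and 0.0793, 0.0668, 0.0367 and 0.0440 in P18. It was not well above background in any P18 array and was so in 2 of 4 NP18 arrays, so that only a bound of at least 1.01-fold higher in NP18 can be given (adjusted p = 0.0526, not called). LAMB1, the laminin beta chain that LAMA4 commonly pairs with, was well above background in 3 of 15 arrays and gave no usable direction (log2 difference -0.12 ± 0.92, adjusted p = 0.956). COL4A3, COL4A4, COL4A6, LAMA2, LAMB2 and LAMB3 were not called and ranged from -0.61 to 1.08.

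The adhesive and matricellular glycoproteins had the lowest median of any role on day 18, -0.91 over 10 probes, with 2 called lower and 0 higher. Of these 10 differences, 1 was above 0, against 55.7% of all probes. TNXB encodes tenascin X, which spaces and binds collagen fibrils in connective tissue. Its levels were 4.12, 5.64, 7.82 and 4.64 in NP18 and 1.94, 1.99, 1.21 and 1.48 in P18. The highest P18 cow lay far below the lowest NP18 cow, and the log2 difference was -1.73 ± 0.25 (SE, adjusted p = 0.00096). FBLN5 encodes fibulin 5, which is needed to assemble elastic fibers. Its levels were 4.75, 4.92, 4.53 and 15.5 in NP18 and 2.05, 2.67, 2.89 and 2.18 in P18. The groups did not overlap, NP18 cows 1 to 3 lay close together and cow 4 stood far above them, and the log2 difference was -1.39 ± 0.34 (SE, adjusted p = 0.024). Without NP18 cow 4 it was -0.97, under the fold limit. EFEMP2 (fibulin 4) was also lower in every P18 cow, at -0.77 ± 0.23, but was not called (adjusted p = 0.0599).

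Other glycoproteins of repair and adhesion were not called. TNC (tenascin C), a matrix protein of remodeling tissue, had levels of 12.6, 27.7, 25.0 and 114 in NP18 and 9.90, 17.2, 16.2 and 8.51 in P18, with overlap and a log2 difference of -1.35 ± 0.88 (SE, adjusted p = 0.374). THBS1 and THBS2, thrombospondins that restrain vessel growth, had log2 differences of -0.84 ± 0.42 and -1.07 ± 0.59 (adjusted p = 0.245 and 0.286). Fibronectin (FN1) had levels of 6.81, 9.60, 9.42 and 14.3 in NP18 and 5.64, 7.10, 9.77 and 8.61 in P18, largely the same range. Its log2 difference was -0.35 ± 0.33 (adjusted p = 0.556), and that of its second, dimmer probe was -0.98 ± 0.50 (adjusted p = 0.248).

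SPP1 (osteopontin), an integrin ligand secreted by the uterine epithelium, was the exception in direction. Its levels were 0.157, 0.572, 0.431 and 1.53 in NP18 and 9.08, 0.429, 6.80 and 1.41 in P18. P18 cows 1 and 3 stood above every other cow, and the other 2 lay within the NP18 range. The log2 difference was 2.33 ± 1.17 (SE) and was not called (adjusted p = 0.242). Day 15 was as uneven, with 0.482, 0.130, 1.88 and 0.118 in NP15 and 0.203, 0.118 and 2.35 in P15.

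VCAN encodes versican, a large proteoglycan that binds hyaluronan and loosens the matrix, and both of its probes were called lower in P18. The levels of its brighter probe were 10.2, 10.4, 8.58 and 11.4 in NP18 and 2.75, 2.54, 2.07 and 2.64 in P18. The cows of each group lay close together, at 10.1 ± 1.15 (SD, n = 4) and 2.5 ± 0.299 (SD, n = 4), with a wide gap between the groups. The log2 difference was -2.02 ± 0.29 (SE, adjusted p = 0.000788), a 4.05-fold fall, and the second probe gave -1.61 ± 0.37 (adjusted p = 0.0192). Levels on day 15 were 4.07, 3.31, 1.98 and 4.79 in NP15 and 1.68, 3.72 and 2.23 in P15. NP18 was therefore the group that stood apart, above all 11 other cows. The small proteoglycans that bind collagen fibrils did not share this pattern in the test. DCN (decorin) had levels of 368, 368, 277 and 439 in NP18 and 399, 420, 425 and 360 in P18, with a log2 difference of 0.16 ± 0.25 (adjusted p = 0.747). BGN (biglycan) and LUM (lumican) had log2 differences of -0.20 ± 0.24 and -0.27 ± 0.38 (adjusted p = 0.662 and 0.714).

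**Figure D2:**
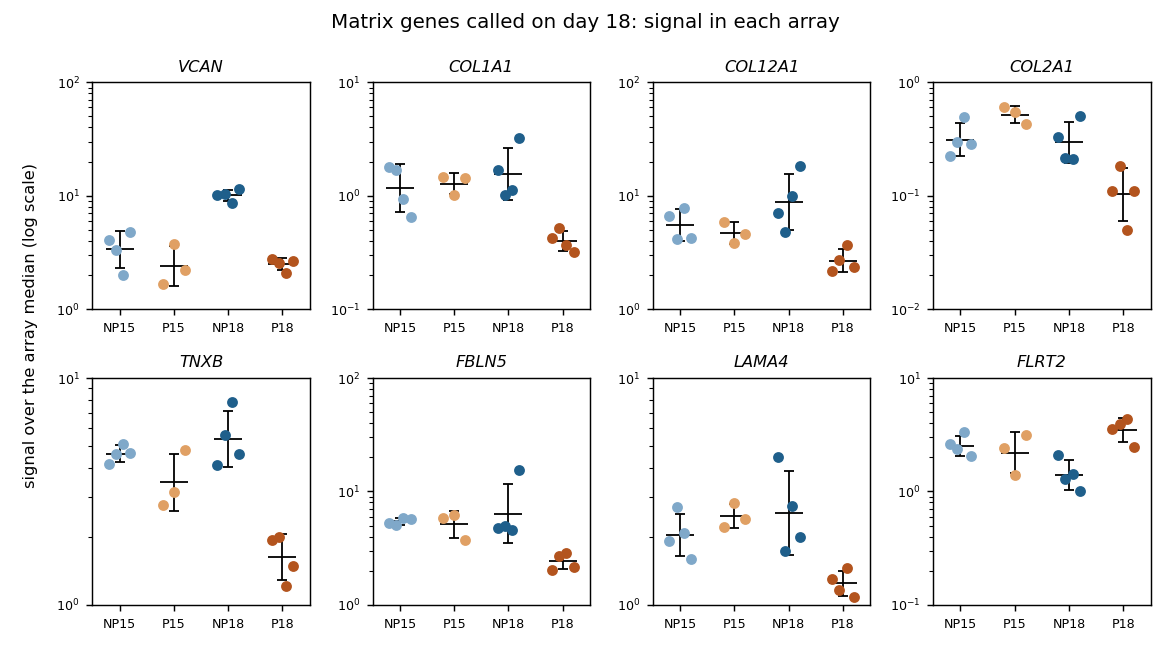
Level of 8 genes in each array (log axis, signal over the array median) by group, each point 1 cow, with the mean of the log2 values as a bar and its SD as the error bar. VCAN is highest in the 4 NP18 cows, whereas COL1A1, COL12A1, COL2A1, TNXB, FBLN5 and LAMA4 are lower in all 4 P18 cows than in the NP18 cows, and FLRT2 is higher.

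Among the 12 probes of integrin subunits, 8 had a difference above 0 on day 18, against 55.7% of all probes (median of 0.43 over the 12). Of the 12, 1 was called higher and 0 lower. ITGB2, the beta subunit shared by the leukocyte integrins, had levels of 2.70, 3.81, 2.72 and 3.97 in NP18 and 4.41, 5.99, 9.57 and 8.26 in P18. All P18 cows were above all NP18 cows, the closest being P18 cow 1, and the log2 difference was 1.06 ± 0.28 (SE, adjusted p = 0.0385). The alpha subunits that pair with it, ITGAM and ITGAL, were too dim to follow. Of the 5 leukocyte markers tested, 0 were called on day 18 (1 at an unadjusted p below 0.05, against 24.1% of all probes). Their summed level was 4.37 to 6.29 in NP18 and 5.17 to 9.85 in P18. The part of leukocyte number in the rise of ITGB2 was not tested.

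ITGB5, a vitronectin receptor subunit that pairs with ITGAV, had levels of 59.3, 173, 195 and 111 in NP18 and 268, 218, 247 and 308 in P18. The groups did not overlap, but the log2 difference of 1.08 ± 0.34 (SE) missed the threshold (adjusted p = 0.0684). On day 15 ITGB5 lay the other way round, at 344, 176, 171 and 284 in NP15 and 134, 128 and 124 in P15, again without overlap and without a call (-0.86 ± 0.36, adjusted p = 0.285). The difference between both days was 1.94 ± 0.49 (SE) and also just missed the threshold (adjusted p = 0.0514). ITGB6, an epithelial subunit that pairs with ITGAV and activates TGF-beta, had levels of 0.0166, 0.160, 0.223 and 0.0722 in NP18 and 0.460, 0.175, 0.430 and 0.336 in P18. P18 cow 2 overlapped the NP18 range and the log2 difference of 2.02 ± 0.84 (SE) was not called (adjusted p = 0.161).

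The subunits most cells carry were not called. ITGB1, the shared partner of many alpha subunits, had levels of 5.85, 6.33, 6.93 and 8.22 in NP18 and 4.99, 6.26, 7.84 and 5.01 in P18, with a log2 difference of -0.20 ± 0.22 (adjusted p = 0.636). ITGAV was at -0.28 ± 0.32 (adjusted p = 0.624) and ITGB3 at -0.53 ± 0.54 (adjusted p = 0.587). ITGA2B, the platelet alpha subunit that pairs with ITGB3, was higher in every P18 cow than in every NP18 cow, at 0.59 ± 0.21 (adjusted p = 0.101, not called). ITGA2, ITGA5, ITGA6 and ITGA8 were not called on day 18 and ranged from -0.41 to 0.44. ITGB7 was not well above background in any array of day 18, so its difference, one of the 8 above 0, has no usable size or direction.

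**Figure D3:**
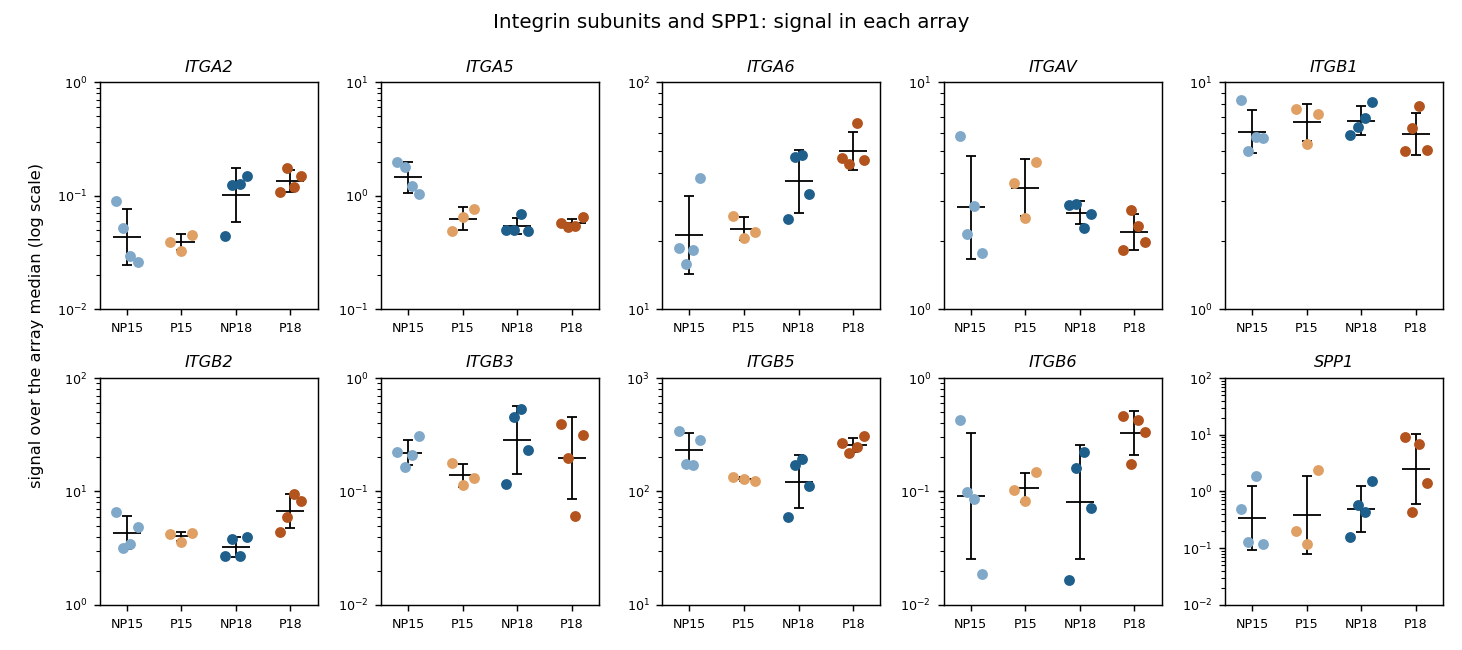
Level of 9 integrin subunits and SPP1 in each array (log axis, signal over the array median) by group, each point 1 cow, with the mean of the log2 values as a bar and its SD as the error bar. ITGA5 is high in the 4 NP15 cows alone, ITGB2 and ITGB5 are higher in all 4 P18 than in the NP18 cows, and SPP1 is scattered within every group.

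Proteins that only share a domain with matrix proteins or bind integrins made up 21 probes, of which 1 was called higher and 0 lower on day 18. Of the 21 differences, 10 were above 0, against 55.7% of all probes (median of -0.01 over the 21). FLRT2, a membrane protein with fibronectin-type and leucine-rich domains that guides cell contacts, had levels of 2.08, 1.28, 1.42 and 1.02 in NP18 and 3.55, 3.93, 4.32 and 2.46 in P18. No cow of one group entered the range of the other, and the log2 difference was 1.31 ± 0.29 (SE, adjusted p = 0.0157). Its NP15 and P15 levels, 2.60, 2.35, 3.31 and 2.04, and 2.39, 1.40 and 3.15, overlapped both ranges. The related FLRT3 was at 1.26 ± 0.56 (adjusted p = 0.183). ILK (integrin-linked kinase), RPSA (the laminin-binding ribosomal protein, brighter probe) and ITGB1BP1, which binds the tail of ITGB1, were not called, at -0.38 ± 0.25, 0.25 ± 0.28 and -0.18 ± 0.26. The probe of THSD4 had an outlier spot in P18 cow 2, which was left out of its fit (-0.23 ± 0.36).

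For each of the 10 probes called on day 18, the exact two-sided permutation test over the 8 cows gave p = 0.0286, the smallest value that 4 against 4 cows allow. Leaving out any 1 of the 15 arrays left the calls of COL1A1, COL12A1, TNXB and the brighter VCAN probe in place. LAMA4 lost its call without any of 8 arrays (adjusted p of 0.0525 to 0.0946) and ITGB2 without any of 9 (0.0527 to 0.121). COL2A1 lost it without NP18 cow 4, P18 cow 3 or P18 cow 4 (0.0783, 0.0883 and 0.052), FBLN5 without P18 cow 1, 2 or 4 (0.0517 to 0.0564) or NP18 cow 4, FLRT2 without P18 cow 2 or 3 (0.0521 and 0.0536), and the second VCAN probe without NP18 cow 4 or P18 cow 2 (0.0526 and 0.0514). The whole count fell from 10 to 5, 6 and 6 without P18 cow 2, 3 and 4, and to 7 without NP18 cow 4. Calls over all probes also fell, from 5.75% to 3.25, 3.37, 4.69 and 4.15% in the same order. When scan day entered the fit as a random block, 0 of the 69 probes were called by limma on day 18 (10 at an unadjusted p below 0.05), against 0.372% of all probes, and the adjusted p of VCAN was 0.094, of TNXB 0.163 and of COL1A1 0.367. Only NP15 was scanned on more than 1 day, so the spread between scan days in this fit came from NP15 alone. This fit thus cannot tell scan day from pregnancy on day 18.

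Marker lists of the cell types that a caruncle could hold were read in the same arrays. Over all probes on day 18, 2.1% were called lower and 3.65% higher, and 24.1% had an unadjusted p below 0.05 by limma. Of the 4 smooth muscle markers tested, 3 were called lower in P18, namely ACTA2 (log2 difference -3.90), ACTG2 (-2.13) and CNN1 (-2.69). Their summed level was 40.6 to 209 in NP18, 37.8 in P18 cow 1 and 11.8 to 13.8 in the other 3. Of the 6 endothelial markers, 2 (PECAM1 and TIE1) were called lower, and 0 of 6 had a difference above 0 (median of -0.80). TIE1 was well above background in 1 of 4 P18 arrays, so the size of its fall is uncertain. The summed levels of the 6 were 10.9 to 20.6 in NP18 and 8.98 to 20.2 in P18, of which TEK made up 8.61 to 13.7 and 6.38 to 14.4. Of the 4 stromal fibroblast markers, 0 were called (1 at an unadjusted p below 0.05), with summed levels of 152 to 220 in NP18 and 120 to 206 in P18. Of the 5 epithelial markers, 0 were called (1 at an unadjusted p below 0.05), with summed levels of 118 to 352 and 225 to 323. All markers tested of epithelium, fibroblast and smooth muscle were well above background in all 15 arrays, as were 4 of the 5 endometrium markers. The remaining one, the estrogen receptor ESR1, was well above background in 3 of 4 NP18 and 0 of 4 P18 arrays, and was called lower with a bound of at least 1.04-fold. MSX1, a transcription factor of the endometrium list, was also called lower (log2 difference -1.60), at 53.3 to 103 in NP18 and 19.4 to 26.1 in P18. The part of cell makeup in the matrix results was not tested.

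Trophoblast markers were called higher in P18 for 6 of the 8 tested, whereas ELF5 was called lower. Of those tested, PAG2 and PAG11 passed the filter on dim probes through 3 P18 arrays alone. IFNT2 was well above background in 3 P18 arrays and 1 NP15 array, so it too would have failed the filter without P18. A high P18 level was thus a condition for testing these markers, which limits what the count of 6 shows. The summed level of the 8 markers was 0.417 to 1.55 in NP18 and 0.619, 137, 80.7 and 573 in the P18 cows in order. The sum of P18 cow 1 lay within the NP18 range, to which ELF5 contributed 0.188 to 1.40. TKDP4, a trophoblast Kunitz domain protein, was nonetheless well above background in all 4 P18 arrays, at 0.271 in cow 1, against 0.0166 to 0.0849 in NP18, where it was well above background in none of the 4. Of the 4 P18 cows, cow 1 thus had the lowest summed trophoblast level but not a zero one. Its log2 difference from the NP18 mean was -1.87 for VCAN, -1.88 for COL1A1, -1.48 for TNXB, -2.03 for COL12A1, -1.64 for FBLN5, -1.44 for COL2A1 and -0.97 for LAMA4. FLRT2 was likewise 1.34 higher, against 0.44 for ITGB2. With cow 1 as the lone P18 array, assumed to vary like the other groups, limma called 0 of the 69 probes (11 at an unadjusted p below 0.05), against 0.471% of all probes. The part of trophoblast RNA in these differences was not tested.

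**Figure D4:**
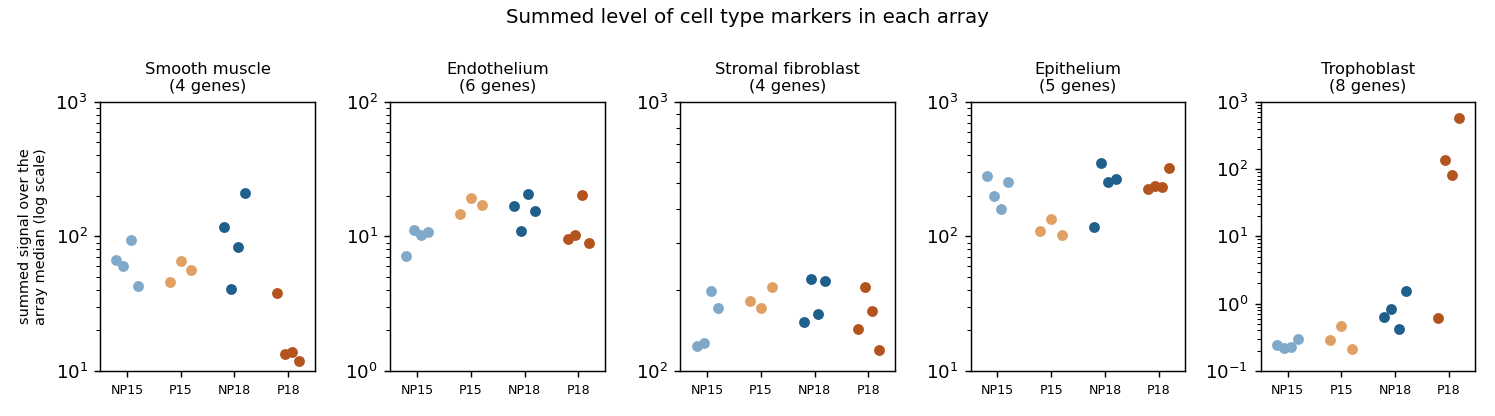
Summed level of the marker genes of 5 cell types in each array (log axis, sum of signals over the array median) by group, each point 1 cow. Smooth muscle is lowest in P18, with 3 cows at 11.8 to 13.8, and trophoblast transcripts are high in 3 of the 4 P18 cows.

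Matrix genes outside the 69 probes, listed by function, moved in the same comparison as follows. Over all probes, 2.1% were called lower and 3.65% higher, and 24.1% had an unadjusted p below 0.05 by limma. Of 11 genes of collagen processing tested, 2 were called lower in P18 and 0 higher (3 at an unadjusted p below 0.05). LOX and LOXL1 encode lysyl oxidases, which crosslink collagen and elastin. LOX had levels of 1.74, 4.03, 4.13 and 4.61 in NP18 and 1.11, 1.22, 1.81 and 1.09 in P18, with NP18 cow 1 inside the P18 range (log2 difference -1.41, adjusted p = 0.0394). LOXL1 had levels of 2.5, 2.99, 2.54 and 4.70 in NP18 and 1.00, 0.611, 0.509 and 1.25 in P18, without overlap (-1.96, adjusted p = 0.0114). Of 21 other matrix genes, 2 were called lower and 0 higher (7 at an unadjusted p below 0.05). POSTN (periostin), which links collagen to other matrix proteins, was at 0.292, 0.779, 0.420 and 1.18 in NP18 and not well above background in P18, a fall of at least 4.53-fold (adjusted p = 0.000927). HAS2, which makes hyaluronan, the ligand of versican, was called lower (adjusted p = 0.0419), but it was not well above background in any P18 array and its bound gave no fold. Without its 3 NP18 arrays it would not have passed the filter on dim probes. A high NP18 level was thus a condition for testing it, which limits what this call shows. Of 10 genes of integrin signaling tested, 0 were called (2 at an unadjusted p below 0.05), and PXN (paxillin) had an adjusted p of 0.0108 at a difference of 0.76, under the fold limit.

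On day 15, the single member called was ITGA5, the alpha subunit of the fibronectin receptor. Its levels were 1.97, 1.80, 1.21 and 1.03 in NP15 and 0.493, 0.656 and 0.769 in P15. No P15 cow reached the lowest NP15 cow, at means of 1.5 ± 0.454 (SD, n = 4) and 0.639 ± 0.139 (SD, n = 3). The log2 difference was -1.20 ± 0.26 (SE, adjusted p = 0.0431), and the exact permutation test gave p = 0.0571, the smallest that 4 against 3 cows allow. This call was lost without any of 11 of the 15 arrays (adjusted p of 0.0506 to 0.249). Those of day 18 lie outside this comparison, and leaving them out kept the difference at -1.20. In NP18 the levels of ITGA5 were 0.503, 0.496, 0.694 and 0.493 and in P18 0.570, 0.533, 0.537 and 0.647, so that NP15 stood above all other groups. An unadjusted p below 0.05 was reached by 8 of the 69 probes on day 15 (11.6%, against 14.9% of all probes), and those not called ranged from -1.67 (THBS4) to 2.77 (LRFN5). The median log2 difference was -0.01 over the 69 probes and -0.06 over all. Every P15 array lay above every NP15 array for 3 probes (4.35%, against 5.93% of all probes) and below for 2 (2.9%, against 9.71%). The 3 were COL4A3, LRFN5 and the second RPSA probe, and the 2 were ITGA5 and ITGB5.

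The interaction term asks if pregnancy changed a gene by another amount on day 18 than on day 15. Limma called 1 of the 69 probes (1.45%, against 2.72% of all probes), which was a lower one (0.653% of all probes). This was COL2A1, at -2.26 ± 0.56 (SE, adjusted p = 0.0479), whose levels were 0.226, 0.296, 0.500 and 0.284 in NP15 and 0.602, 0.544 and 0.427 in P15, higher in P15 on average on day 15 and lower in P18 on day 18. The call was lost without any of 12 of the 15 arrays (adjusted p of 0.0585 to 0.136) and under 6 of 10 other alternatives, among them normexp background correction, with which the difference was -0.99. COL1A1, VCAN, TNXB and LAMA4 had interactions of -2.10, -1.54, -1.32 and -1.31 with adjusted p of 0.06, 0.0629, 0.0667 and 0.0902, and ITGA5 one of 1.28 (adjusted p = 0.0619). A different effect on the 2 days was thus not shown for these genes.

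In the cycle, from day 15 to day 18, 3 of the 69 probes were called (4.35%, against 7.16% of all probes), namely both VCAN probes as higher (2.89% of all probes) and ITGA5 as lower (4.26%). Every NP18 array lay above every NP15 array for 2 probes (2.9%, against 5.96% of all probes) and below for 4 (5.8%, against 7.11%). VCAN rose, with every NP18 cow above every NP15 cow (log2 difference, NP18 minus NP15, 1.58 ± 0.29, adjusted p = 0.0047, and 1.65 ± 0.37, adjusted p = 0.014, for the second probe). ITGA5 fell by 1.42 ± 0.24 on the log2 scale (adjusted p = 0.00328), again with no overlap. The median was 0.15 over the 69 probes and 0.02 over all. These contrasts share the NP18 cows with that of pregnancy on day 18 and the NP15 cows with that on day 15, so they are not independent of them. Outside the 69 probes, P4HA1 (a collagen prolyl hydroxylase subunit) and HAS2 were called higher in NP18, at 1.43 and 2.48, and ELN (elastin) and NID1 (nidogen) lower, at -1.34 and -1.02. HAS2 was well above background in 1 of 4 NP15 and 3 of 4 NP18 arrays and NID1 in 4 of 4 and 1 of 4, so the size of both differences is uncertain. HAS2 would not have passed the filter on dim probes without its NP18 arrays, which limits what its call shows. Of the cell type markers, VIM (vimentin, a fibroblast marker) was called higher in NP18, at 1.03, and so was ELF5, at 2.52.

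In pregnancy, from day 15 to day 18, 7 of the 69 probes were called (10.1%, against 11.9% of all probes), 5 lower (7.25%, against 4.31%) and 2 higher (2.9%, against 7.58%) on day 18. Every P18 array lay above every P15 array for 13 probes (18.8%, against 26.7% of all probes) and below for 14 (20.3%, against 16.1%). With each array divided by its 75th percentile, which moved the median of all probes from 0.12 to -0.18, the split was 10 lower and 1 higher, and with quantile normalization 9 lower and 1 higher. Calls over all probes, both directions together, were 12.5% and 11.9% under these scalings. Their split by direction was not computed, so the shift among the 69 probes cannot be set against that of all probes. The median of the 69 probes moved as well, from -0.13 to -0.43 with the 75th percentile. Of the 5 that fell, 4 were collagens. COL2A1 differed by -2.34 ± 0.41 (SE, adjusted p = 0.00357). COL11A1, at 0.920, 0.696 and 0.836 in P15 and 0.305, 0.190, 0.165 and 0.318 in P18, differed by -1.79 ± 0.34 (adjusted p = 0.00497). These are the 2 cartilage-type collagens whose probes both carry the repeat shown above. COL18A1, the basement membrane collagen from which endostatin is cut, was at 1.08, 1.38 and 0.959 in P15 and 0.660, 0.209, 0.167 and 0.400 in P18, a difference of -1.86 ± 0.53 (adjusted p = 0.0299). COL1A1 differed by -1.67 ± 0.41 (adjusted p = 0.0161) and TNXB by -1.10 ± 0.27 (adjusted p = 0.0156). With 1 array left out, COL18A1 lost its call without any P15 cow, P18 cow 2 or P18 cow 3 (adjusted p of 0.0718 to 0.0985), COL1A1 without P15 cow 1 or 3 (0.069 and 0.0653) and TNXB without P15 cow 3 (0.0875) or P18 cow 3 (-0.96, under the fold limit), whereas COL2A1 and COL11A1 lost theirs in no case. In P18, however, COL2A1 was well above background in 2 of 4 arrays, and COL11A1 and COL18A1 each in 3 of 4. The size of these falls is thus uncertain. Under the other alternatives the differences of COL2A1, COL11A1 and COL18A1 were as small as -1.17, -1.20 and -0.77. Cell type markers moved in the same comparison. Called lower in P18 were 3 of 4 smooth muscle markers (summed level 45.8 to 65.4 in P15 and 11.8 to 37.8 in P18), 2 of 6 endothelial markers (14.7 to 19.2 and 8.98 to 20.2), 1 of 4 fibroblast markers (VIM, -1.02) and 1 of 5 epithelial markers (CDH1, -2.89, with EPCAM called higher at 1.45). Trophoblast markers were called higher for 6 of 8 (summed level 0.215 to 0.462 in P15), where PAG2 and PAG11 again had passed the filter through P18 arrays alone. IFNT2 would likewise not have passed it without the P18 arrays. The part of these cell types in the differences was not tested.

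The 2 integrin subunits that rose in pregnancy between the days were ITGA2, of the collagen receptor, and ITGA6, of the laminin receptor. ITGA2 was dim, at 0.0394, 0.0328 and 0.0452 in P15 and 0.108, 0.176, 0.118 and 0.148 in P18, well above background in 2 of 3 and 2 of 4 arrays, and differed by 1.80 ± 0.44 (adjusted p = 0.0158). ITGA6 was at 25.9, 20.6 and 21.8 in P15 and 46.5, 43.5, 66.3 and 45.6 in P18, without overlap, and differed by 1.13 ± 0.31 (adjusted p = 0.0266). The call of ITGA2 was lost without P15 cow 1 or 2 (adjusted p = 0.057 and 0.0637) and that of ITGA6 without any of the 3 P15 cows or without P18 cow 3 (0.0638 to 0.0894). Non-pregnant cows had ITGA6 levels of 18.6, 15.7, 18.2 and 37.9 on day 15 and 24.8, 46.7, 48.0 and 32.1 on day 18, and the difference of 0.79 ± 0.29 between them was not called (adjusted p = 0.0917). Whether the rise differed between pregnant and non-pregnant cows is the interaction, which was 0.35 ± 0.43 for ITGA6 and 0.58 ± 0.60 for ITGA2 (adjusted p = 0.702 and 0.641). BGN was lower in every P18 than in every P15 cow, at -0.90 ± 0.26 (adjusted p = 0.0303), under the fold limit.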

How the data were processed

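Labeled RNA was hybridized by the authors to one-color Agilent arrays, and the deposited scanner tables (Feature Extraction 9.5, per the file headers) hold a background-corrected processed signal of each spot as an intensity on a linear scale. A deposited log2 table of these arrays served as an alternative. It was compared with log2 intensity minus the log2 75th percentile of the array. The median difference over the probes of an array was 0.00519 to 0.0126. Following the methods, intensities were scaled here to the array median of the 15208 non-control probes before log2 was taken. Control and outlier spots were dropped. No spots were averaged, because no probe name occurred more than once among the other spots of an array. Probes well above background on 3 or more of 15 arrays, 13164 in all, entered limma 3.58.1 (R 4.3.3), with 1 mean per group and Benjamini-Hochberg adjustment over all of them. The fit was checked on simulated data. Levels, exact permutation tests and figures came from Python 3.11.15 with pandas 2.3.3, scipy 1.17.1 and matplotlib 3.10.9.

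Gene symbols came from the files or the RefSeq gene table, and 17 of the 69 probes were named by their description. Named genes were every called member and a list of well-known matrix and integrin genes whatever their values, with the brightest probe standing for a gene. The further members given with values (such as EFEMP2, ITGA2B, COL6A2, COL22A1, FLRT3, ILK and LRFN5) were picked after their values were seen. Members, roles and marker lists were chosen with earlier results of these data known. The alternatives were other scalings (75th percentile, quantile normalization, normexp with an offset of 50, the deposited log2 values), other filters, blocks (slide, scan day, replicate number), array weights, the compared groups alone, no fold limit, the t-test of the methods with or without Benjamini-Hochberg adjustment, and each array left out in turn. Keeping P18 cow 1 alone of its group was added after seeing the data. Precision is limited by the 3 or 4 arrays of a group, and p-values measure the spread between these cows.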

Additional observations from a re-analysis of the deposited data

Results flagged for a closer look

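Among 90 sets of 4 cows (a named gene in a group), 6 had 1 cow set apart, with a gap to the nearest cow beyond Dixon's critical value for 4 samples. Chance gives about 1 in 20 such sets. In NP18, cow 3 was the highest for ITGA5 (gap of 0.945 of the range of the group), cow 4 was the highest for FBLN5 (0.933) and cow 1 was the lowest for ITGA2 (0.854). In P18, cow 3 was the highest for ITGA6 (0.844). In NP15, cow 3 was the highest for COL1A2 (0.902) and cow 4 was the lowest for COL4A1 (0.848). Without the cow set apart for it, FBLN5 lost its call on day 18 (log2 difference -0.97, adjusted p = 0.0215) and ITGA6 that between the days in pregnancy (1.00, adjusted p = 0.075). Without NP18 cow 3, ITGA5 lost its call on day 15 (adjusted p = 0.055), a comparison that does not hold this cow. The difference stayed at -1.20, and only the variance estimate and the adjustment, which draw on all arrays, changed.

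COL2A1 had an effect of pregnancy that differed between the days by the interaction test, at -2.26 on the log2 scale, from 0.73 on day 15 to -1.52 on day 18. The call was lost without any of 12 of the 15 arrays and under 6 of 10 other alternatives, and the difference was -0.99 with normexp.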

How the results depend on the processing

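Scan day as a random block took the counts called among the 69 probes, and the 20 called differences of named genes, to 0, while calls over all probes fell to 0.372% on day 18, 0.41% in the cycle and 0 in the other comparisons. The counts below are of the 69 probes, except for the fit of probes well above background in all arrays, which held 50 of them. COL2A1, COL11A1, COL18A1 and ITGA2 were not among these 50. The 10 called for pregnancy on day 18 became 6 with the 2 groups alone, 3 with the adjusted t-test of the methods (12 unadjusted) and 0 with only P18 cow 1 kept (3.62, 1.43, 8.79 and 0.471% of all probes), and were 5 to 12 when 1 array was left out. The 1 on day 15 became 0 with the 75th percentile, the deposited log2 values, slide as a block, the 2 groups alone, the adjusted t-test and only P18 cow 1, and 4 with array weights and 3 with the unadjusted t-test (6.48 and 3.29% of all probes, against 0.798%; 0 to 1 when 1 array was left out). The 1 for the interaction became 2 with the 75th percentile, quantile normalization and the deposited log2 values, 14 with normexp, 4 with probes well above background in all arrays, 12 with array weights (9.98, 3.77 and 10.1% of all probes, against 2.72%), and 0 with no filter, slide as a block and only P18 cow 1 (0 to 5 when 1 array was left out). The 3 in the cycle became 5 with normexp and with probes well above background in all arrays, 14 with array weights, 6 with the unadjusted t-test, 1 with the 2 groups alone and 0 with the adjusted t-test (11.6, 8.14, 1.19 and 1.04% of all probes for the last 4, against 7.16%; 3 to 10 when 1 array was left out, 10 of them without NP18 cow 1). The 7 in pregnancy between days became 11 with the 75th percentile and the deposited log2 values, 4 with probes well above background in all arrays, 12 with array weights, 14 with the 2 groups alone and with the unadjusted t-test, and 0 with only P18 cow 1 (18.3, 15.9, 16.1 and 0% of all probes for the last 4, against 11.9%; 3 to 11 when 1 array was left out, 3 without P15 cow 3 and 11 without NP18 cow 4). The 20 called differences of named genes became 13 with the 2 groups alone, 7 with the adjusted t-test and 2 with only P18 cow 1 (11 to 20 when 1 array was left out). The cause of these changes was not tested, except that fewer arrays, or fewer of the 69 probes, enter some of them.

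Replicate numbers were shared between groups of different cows, and same-numbered arrays deviated from their group means with correlations of -0.125 to 0.30, so the numbers do not pair the cows. With the replicate block, 0 of the 69 probes were called on day 15, 7 on day 18, 1 for the interaction, 5 in the cycle and 5 in pregnancy. Over all probes the shares were 0.0608, 4.66, 1.46, 6.29 and 8.7% in the same order. Of the called differences of named genes, 13 remained called.

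The differences of day 18 that changed sign, of which none was called, were COL11A1 (0.0841), COL18A1 (0.39) and ITGB3 (0.47) with only P18 cow 1, LAMB1 with normexp (0.32) and array weights (0.13), LUM with array weights (0.0530), and ITGA5 with the 75th percentile (-0.000830) and the deposited log2 values (-0.00174). With 1 array left out, LAMB1 ranged from -0.53 to 0.31, LUM from -0.52 to 0.16 and ITGB3 from -0.96 to 0.0336. The falls of COL1A1, COL12A1, TNXB and VCAN on day 18 kept their direction under all alternatives run. With arrays left out this could not have been otherwise, because every P18 array lay below every NP18 array for these genes. With normexp, COL2A1 was at -0.54 on day 18 (adjusted p = 0.114).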
